A study of Drosophila melanogaster with 32 samples.

Results

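Of the 17559 genes counted in heads of male Drosophila melanogaster, 7 that act in the methionine cycle or in the repair of oxidised methionine are described here across 32 RNA-seq libraries. They are Sam-S, Gnmt, Sardh, Ahcy, Cbs, MsrA and SelR, found in the count files by FlyBase symbol, and 7 of 7 were present. Gnmt and MsrA were chosen by their counts, which were higher at 5 h after training than in naive flies. Their values at 5 h, and every comparison that shares a naive or 5 h library with that choice, are therefore given as a description without a test. The other 5 genes were tested.

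Each library held polyadenylated RNA from the heads of a pool of naive or trained males of 1 of 4 strains, and the series concerns Hsp70, a heat-inducible chaperone, in memory formation. Strain w+hsp70- had 3 libraries at 5 h and 3 from naive flies. From hsp70-4c there were 4 libraries of naive flies, 3 of flies 5 h after training and 3 of flies 24 h after it. From hsp70- there were 3 at 5 h and 3 naive. From hsp70-1c there were 4 naive, 3 at 5 h and 3 at 24 h. The labels give the strains by these names alone. They list no alleles, genetic background, age or hour of collection, and do not describe the training. Strain, background and any batch can therefore not be told apart. For naive hsp70-4c flies the titles and the time label differ in wording (the titles name a 5 h control), and the time label was followed.

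Methionine is made into S-adenosylmethionine, the methyl donor of the cell, by the S-adenosylmethionine synthetase Sam-S. Gnmt, glycine N-methyltransferase, moves a methyl group from S-adenosylmethionine to glycine and makes sarcosine, which Sardh, sarcosine dehydrogenase, turns back into glycine. Transfer of the methyl group leaves S-adenosylhomocysteine, which Ahcy splits to homocysteine. Cbs, cystathionine beta-synthase, draws homocysteine out of the cycle towards cysteine. Methionine inside proteins can be oxidised to a sulfoxide in an S or an R form, and MsrA reduces the S form and SelR the R form. In flies Gnmt is best known from the fat body, where it keeps S-adenosylmethionine in check.

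In build dm6, Sam-S (FBgn0005278) is on chromosome arm 2L, from 106903 to 114432, and MsrA (FBgn0000565) on 3L, from 15511052 to 15513202. Ahcy (FBgn0014455) spans 15450261 to 15453167 and Cbs (FBgn0031148) 21045138 to 21049096, both on X. Sardh (FBgn0034276) is on 2R, from 17753555 to 17756422, and SelR (FBgn0267376) on 3R, from 10863355 to 10868642, both on the minus strand. Gnmt (FBgn0038074) is also on 3R, from 12674608 to 12676084 on the plus strand, and starts 163.1 kb past the end of Hsp70Bc. Of the 990 exon bases of Gnmt, 75 overlap CG43630 on the other strand. The strand setting of the counting is not given in the sources used here, so reads in that overlap could belong to either gene.

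Between 4542145 and 10344890 reads per library were assigned to genes. Defining head markers were detected in every group: 5 of 5 neuronal, 5 of 5 glial and 6 of 6 photoreceptor genes. So were 14 of 15 fat body genes, the other having no row in the files, while 7 testis genes summed to 2.56 to 29.3 CPM. The 8 gut genes summed to 3545 to 18741 CPM, and varied from 3697.5 to 18120 CPM within naive hsp70-1c. CPM stands for counts per 1000000 assigned reads, after scaling of the library sizes. Heads are bulk tissue, so fewer cells of a type and less RNA per cell cannot be told apart.

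Gnmt was the most abundant of the 7 per length of transcript, at a mean level of 341 CPM per kb of exon over the 32 libraries. MsrA followed at 110.5 CPM per kb, then Sam-S at 84.1, Ahcy at 53.9, Cbs at 22.6, SelR at 20.6 and Sardh at 4.54 CPM per kb. In naive hsp70-4c flies alone, Gnmt (43.1 CPM per kb) was below Sam-S (64.6) and MsrA (56.3). The genes differed in how far their levels moved across the 10 groups. Gnmt and MsrA were chosen for a rise at 5 h, so their high places in this order follow in part from the choice. The ratio of the highest to the lowest group mean was 20.0 for Gnmt, 4.96 for MsrA, 4.304 for Sardh and 3.24 for Ahcy. It was 1.999 for Sam-S, 1.62 for Cbs and 1.36 for SelR. The highest group was hsp70-1c at 5 h for 5 of the 7 genes, hsp70-4c at 24 h for Sardh and naive hsp70-4c for SelR. In the order of group means, Gnmt was highest in the 5 h groups of hsp70-1c, w+hsp70-, hsp70-4c and hsp70-, followed by hsp70-1c at 24 h and naive. Each of these overlapped the next. A gap followed, below which lay naive w+hsp70-, hsp70-4c at 24 h, naive hsp70- and naive hsp70-4c, each again overlapping the next. For MsrA the 5 h groups of hsp70-1c and w+hsp70- overlapped each other and lay above hsp70- at 5 h, the next group. Further down, the lowest MsrA library of hsp70-4c at 5 h (97.27 CPM) was above naive w+hsp70-, but below the highest of naive hsp70- (99.7 CPM). For Sam-S, w+hsp70- at 5 h did not overlap hsp70- at 5 h, the next group. The top group, hsp70-1c at 5 h, did, going down to 369.3 CPM beside 374 CPM in hsp70-. Naive hsp70- did not overlap naive hsp70-4c, the next group for Sam-S. Naive hsp70-1c did, going down to 235.8 CPM beside 237.7 CPM in naive hsp70-4c. For Cbs a gap lay below hsp70-1c at 5 h. Neighbouring groups overlapped throughout for Sardh, Ahcy and SelR. A library had at least 206 counts of Gnmt and at least 17 of Sardh, which had the fewest counts.

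**Figure D1:**
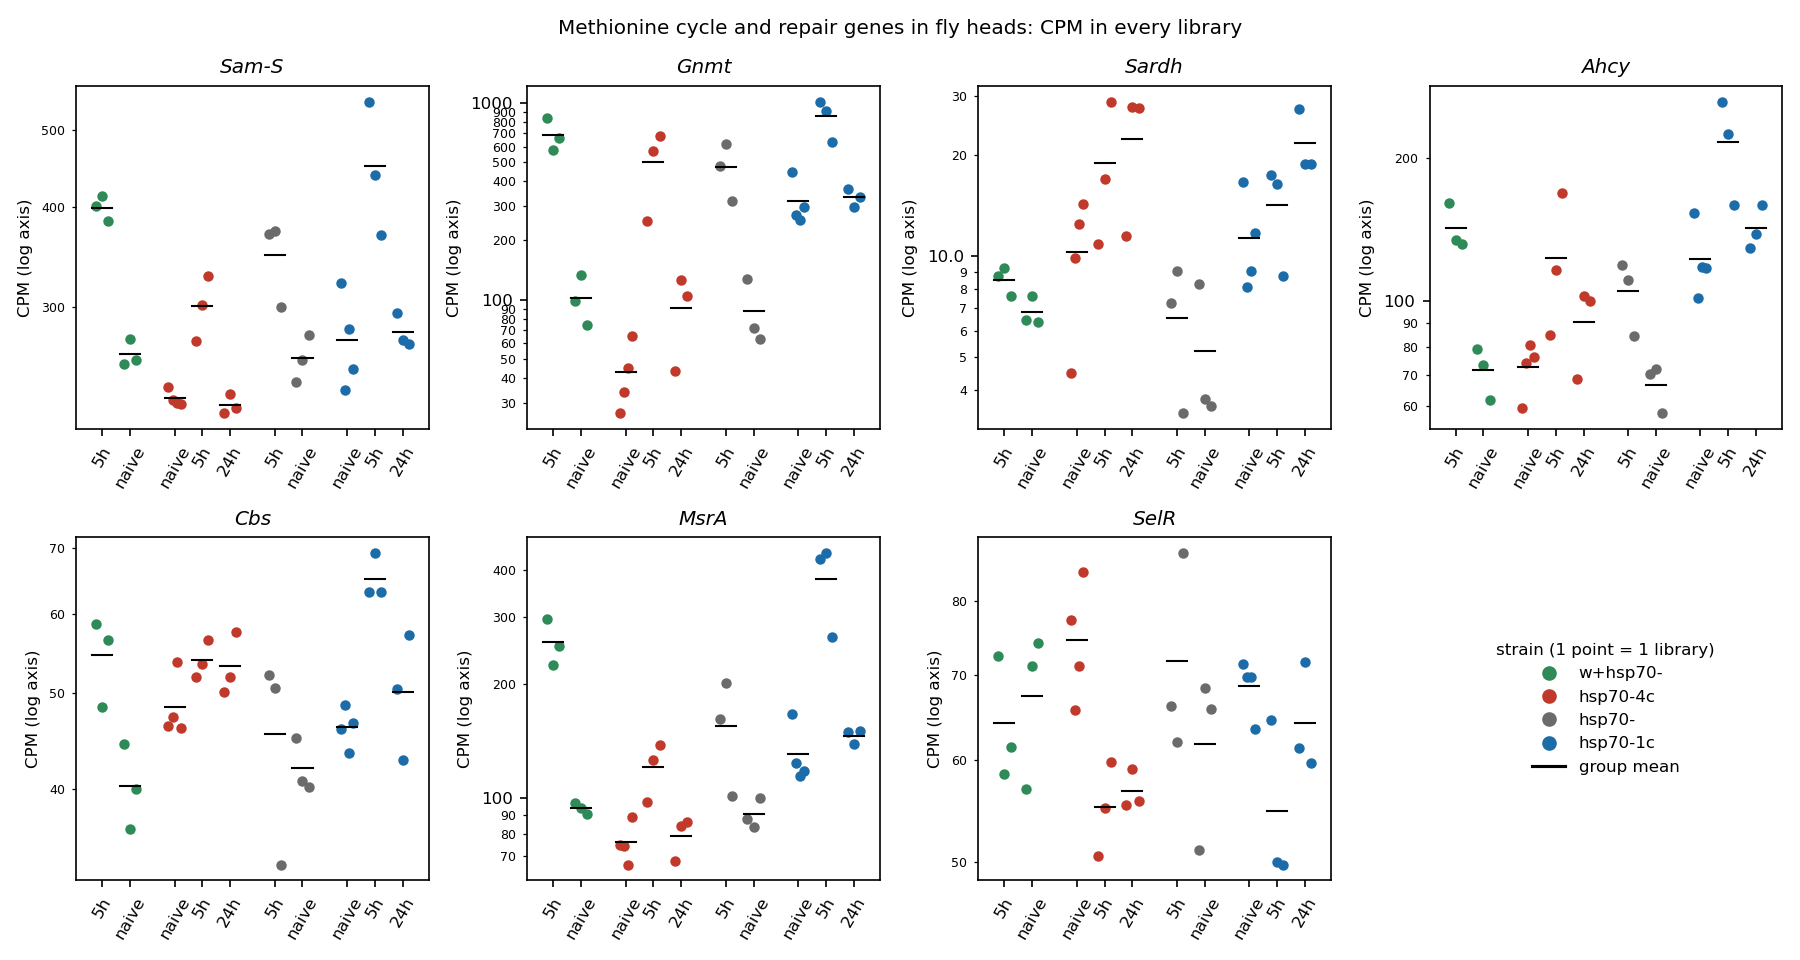
CPM (log axis) of the 7 genes in each of 32 libraries, 1 point per library coloured by strain, with a black line at the group mean (n = 3 or 4). Gnmt, MsrA, Sam-S and Ahcy were higher at 5 h than in naive flies in 4 of 4 strains with no overlap of libraries. Gnmt and MsrA were chosen for this difference, and in hsp70- neither Sam-S nor Ahcy passed the test. Of all genes tested, 12.7% (hsp70-) to 20.8% (hsp70-4c) did not overlap within a strain, and the share in all 4 strains at once was not counted. Sardh had its highest group means at 24 h in hsp70-4c and hsp70-1c.

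At 5 h, Sam-S, Ahcy and Cbs rose in 1 or more strains, SelR fell in 1, and Sardh was not called in any. Sam-S rose in w+hsp70-, hsp70-4c and hsp70-1c, by 1.31- to 1.66-fold. Ahcy rose in w+hsp70- and hsp70-1c by 1.99- and 1.76-fold, and Cbs in hsp70-1c by 1.41-fold. SelR fell in hsp70-4c to 0.744 of its naive level. In hsp70- none of the 5 genes passed.

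Sam-S, which makes the methyl donor, was at 402, 414 and 384 CPM in w+hsp70- at 5 h and at 254, 273 and 257 CPM in naive flies. In hsp70-4c it was at 272, 302 and 328 CPM at 5 h, against 238, 229, 227 and 226 CPM in naive flies. Every 5 h library was above every naive library in both strains, although the gap was narrower in hsp70-4c. In hsp70- it was at 370, 374 and 299.9 CPM at 5 h, against 241, 257 and 276 CPM in naive flies. Sam-S of hsp70-1c was at 544, 439 and 369 CPM at 5 h, against 321, 236, 281 and 251 CPM in naive flies. The groups did not overlap in these strains either. Libraries of 5 h and naive flies did not overlap for 16.9% of all genes tested in w+hsp70-, 20.8% in hsp70-4c, 12.7% in hsp70- and 16.3% in hsp70-1c.

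By edgeR's quasi-likelihood test, with p-values adjusted over all genes tested, the log2 difference of Sam-S was 0.61 in w+hsp70- (SE 0.08, adjusted p = 0.000978) and 0.73 in hsp70-1c (SE 0.13, adjusted p = 0.00651). Both stayed called whichever library was left out. In hsp70-4c it was 0.39 (SE 0.08, adjusted p = 0.0139), and the adjusted p was 0.0575 without 5 h replicate 2 and 0.0685 without 5 h replicate 3. In hsp70- the log2 difference was 0.45 (SE 0.12) and did not pass (adjusted p = 0.478).

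Gnmt, the enzyme that uses up S-adenosylmethionine on glycine, was at 837, 574 and 661 CPM in w+hsp70- at 5 h and at 98.8, 133 and 73.9 CPM in naive flies. In hsp70-4c it was at 250.4, 567.8 and 680.3 CPM at 5 h, against 26.5, 33.8, 45.1 and 65.2 CPM in naive flies. Naive hsp70-4c flies had the lowest Gnmt of the 10 groups, and their 5 h libraries spread widely. In hsp70- it was at 479, 619 and 316 CPM at 5 h, against 128, 71.5 and 63.1 CPM in naive flies. Gnmt of hsp70-1c was at 1016, 908 and 636 CPM at 5 h, against 448, 269, 254 and 295 CPM in naive flies. Groups of a strain did not overlap in any of the 4, and this difference is what Gnmt was chosen for. The log2 differences were 2.76 in w+hsp70- (SE 0.28), 3.56 in hsp70-4c (SE 0.52), 2.45 in hsp70- (SE 0.38) and 1.43 in hsp70-1c (SE 0.22).

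Sardh, which acts on the sarcosine that Gnmt makes, had overlapping libraries at 5 h in each strain. It was at 8.73, 9.23 and 7.59 CPM in w+hsp70- at 5 h, against 6.47, 7.62 and 6.38 CPM in naive flies. In hsp70-4c it was at 10.9, 17.0 and 29.0 CPM at 5 h, against 4.50, 9.85, 12.4 and 14.3 CPM in naive flies. The spread within both hsp70-4c groups was wide. At 5 h it was at 7.24, 9.05 and 3.40 CPM in hsp70- and 17.5, 16.4 and 8.72 CPM in hsp70-1c, against 8.28, 3.74 and 3.58 CPM in naive hsp70- and 16.6, 8.09, 9.01 and 11.7 CPM in naive hsp70-1c flies. Its log2 differences lay between 0.32 and 0.89 in the 4 strains, with adjusted p from 0.34 to 0.94 by the same test.

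Ahcy, which clears S-adenosylhomocysteine, was at 161, 134 and 132 CPM in w+hsp70- at 5 h and at 79.1, 73.3 and 62.0 CPM in naive flies. In hsp70-4c it was at 84.7, 116.5 and 169 CPM at 5 h, against 59.6, 74.1, 80.8 and 76.3 CPM in naive flies. Libraries did not overlap in either strain, but the lowest 5 h library of hsp70-4c was close to the naive ones. In hsp70- it was at 119, 111 and 84.6 CPM at 5 h, against 70.1, 71.9 and 58.0 CPM in naive flies. Ahcy of hsp70-1c was at 263, 225 and 159 CPM at 5 h, against 153, 102, 118 and 118 CPM in naive flies. Each of these 5 h libraries was above the naive ones of their strain.

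The log2 difference of Ahcy was 0.99 in w+hsp70- (SE 0.11, adjusted p = 0.000152), and it stayed called whichever library was left out. It was 0.82 in hsp70-1c (SE 0.17, adjusted p = 0.0244), where the call rested on many of the libraries. The adjusted p there was 0.0761 and 0.103 without 5 h replicates 1 and 2, and 0.0507, 0.0735 and 0.0822 without naive replicates 2, 3 and 4. The differences of 0.77 in hsp70-4c (SE 0.23, adjusted p = 0.0925) and 0.67 in hsp70- (SE 0.15, adjusted p = 0.306) did not pass. The value in hsp70-4c passed without 5 h replicate 1, at an adjusted p of 0.0247. It also passed by the Wald test of DESeq2 (adjusted p = 0.00937) and with all libraries in 1 edgeR fit (adjusted p = 0.0171).

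Cbs, at the exit of the cycle towards cysteine, was at 63.1, 69.2 and 63.1 CPM in hsp70-1c at 5 h and at 45.9, 48.6, 43.5 and 46.6 CPM in naive flies, with no overlap. Its log2 difference there was 0.50 (SE 0.10, adjusted p = 0.0112), and 0.45 without 5 h replicate 2 (adjusted p = 0.0677). In w+hsp70- it was at 58.7, 48.3 and 56.5 CPM at 5 h, against 44.4, 36.5 and 40.0 CPM in naive flies. Those groups did not overlap, and the log2 difference of 0.44 (SE 0.11) did not pass (adjusted p = 0.0596). In the edgeR fit without the filter on low counts it passed (adjusted p = 0.00574). Libraries overlapped in hsp70-4c and in hsp70-, where the log2 differences were 0.17 and 0.13 (adjusted p = 0.28 and 0.94).

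Of the methionine sulfoxide reductase genes, MsrA had a higher fitted level at 5 h in 4 of 4 strains, the difference it was chosen for. SelR, which was not chosen for such a rise, was higher in 1 of 4. Because of that choice, these counts are no contrast between the genes. MsrA was at 297, 224.5 and 251.5 CPM in w+hsp70- at 5 h, against 97.0, 93.9 and 90.5 CPM in naive flies. In hsp70-4c it was at 97.3, 126 and 138 CPM at 5 h, against 74.9, 74.6, 66.6 and 89.0 CPM in naive flies. The step in hsp70-4c was small beside that in w+hsp70-. In hsp70- MsrA was at 161, 202 and 101 CPM at 5 h, against 88.1, 83.8 and 99.7 CPM in naive flies. In hsp70-1c it was at 426, 443 and 266 CPM at 5 h, against 166, 124, 114 and 118 CPM in naive flies. The log2 differences were 1.46 (SE 0.11) in w+hsp70-, 0.67 (SE 0.13) in hsp70-4c, 0.79 (SE 0.24) in hsp70- and 1.54 (SE 0.18) in hsp70-1c. No group of a strain overlapped with the other, and in hsp70- the lowest 5 h library was barely above the highest naive one.

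SelR was at 50.5, 55.1 and 59.9 CPM in hsp70-4c at 5 h, against 77.3, 65.7, 71.1 and 84.3 CPM in naive flies, with no overlap. Its log2 difference was -0.43 (SE 0.10, adjusted p = 0.0243), and the adjusted p was 0.0753, 0.0795 and 0.0642 without 5 h replicate 1, 5 h replicate 2 or naive replicate 1. SelR of hsp70-1c was at 64.5, 49.9 and 49.7 CPM at 5 h, against 71.4, 69.8, 69.7 and 63.5 CPM in naive flies. One 5 h library there lay within the naive range, and the log2 difference of -0.33 (SE 0.11) did not pass (adjusted p = 0.126); without that library, 5 h replicate 1, the adjusted p was 0.036. In w+hsp70- and hsp70- the log2 differences were -0.07 and 0.23 (adjusted p = 0.895 and 0.882).

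**Figure D2:**
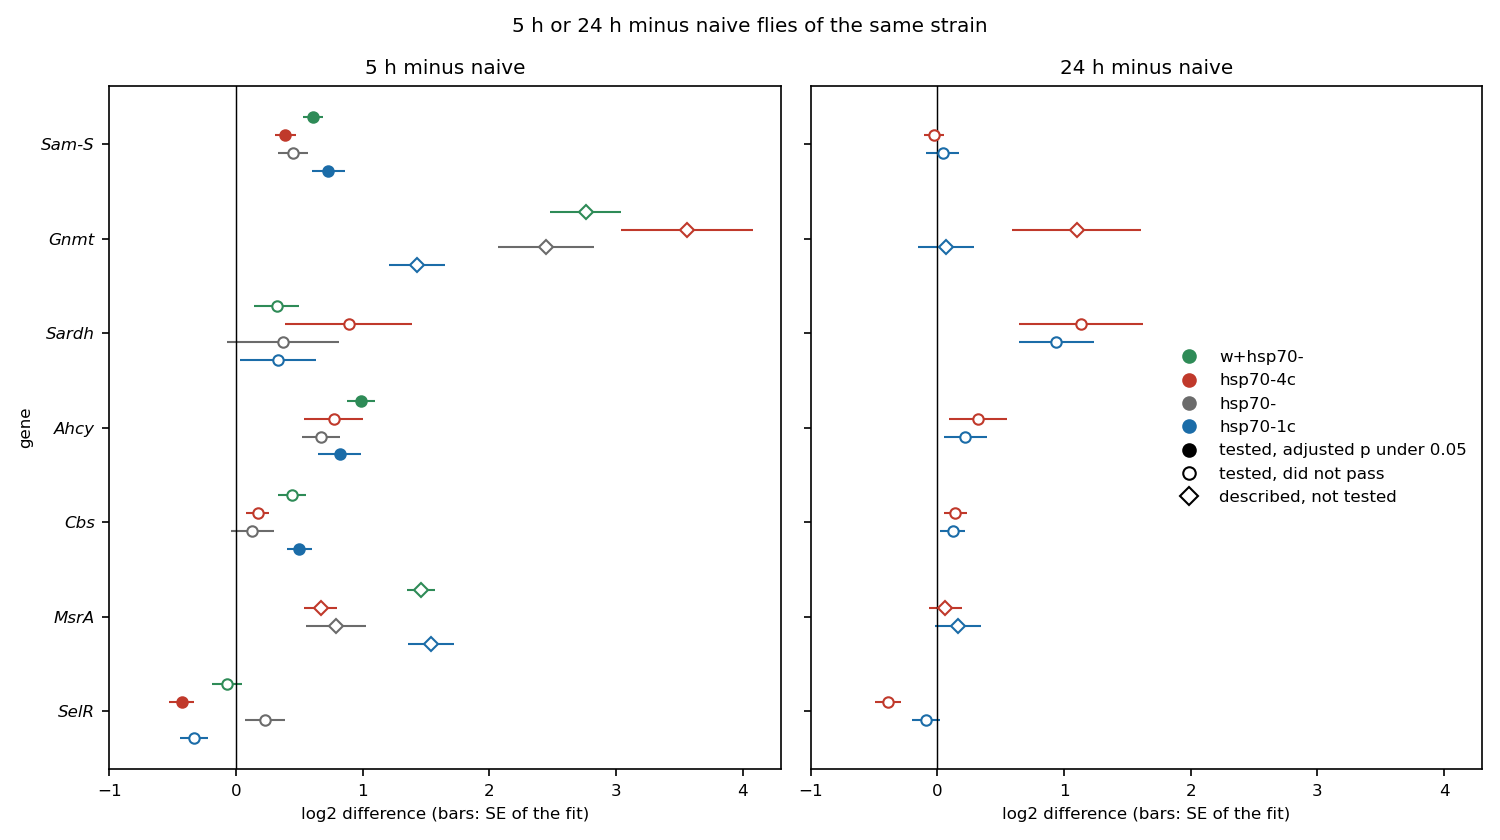
Log2 difference of the 7 genes between 5 h and naive flies (left, 4 strains) and between 24 h and naive flies (right, hsp70-4c and hsp70-1c), with bars of 1 SE from the edgeR fit. Filled circles passed the test, open circles did not, and diamonds (Gnmt and MsrA) were not tested; at 24 h no gene of the 5 tested passed.

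Of the 5 genes tested at 5 h, 2 were called in w+hsp70-, both higher, where 1.93% of all 10015 genes tested were called and 0.979% were higher. In hsp70-4c 2 of 5 were called, 1 higher and 1 lower, where 5.48% of 10400 genes were, 3.04% higher and 2.44% lower. None of 5 was called in hsp70-, where 0.0305% of 9849 genes were, which is 3 genes. There 621 genes had an unadjusted p under 0.05, and the Wald test of DESeq2 called 42 genes and none of the 5. In hsp70-1c 3 of 5 were called, each higher, against 3.51% of 10514 genes, 1.41% higher.

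Markers of other head tissues moved in some of the same comparisons. In hsp70-1c 1 of 12 tested fat body genes rose at 5 h and 4 fell, and 14 fat body genes summed to 3041 to 3602 CPM at 5 h and 5461 to 6712 CPM in naive flies. In hsp70-4c 3 of 13 rose and none fell, with sums of 3109 to 4738 CPM at 5 h and 3208 to 4055 CPM in naive flies. In w+hsp70- 1 of 11 rose and 1 fell, and in hsp70- none of 12 was called. The sums also overlapped in w+hsp70-, at 2349 to 2508 CPM at 5 h and 2378 to 3016 CPM in naive flies, and in hsp70-, at 1870.2 to 2640.5 CPM at 5 h and 1977 to 2675 CPM in naive flies. AkhR, the receptor of the fat-mobilising adipokinetic hormone, fell in w+hsp70- (log2 difference -1.14, adjusted p = 4.38e-05) and in hsp70-1c (-0.77, adjusted p = 0.00227). Apoltp, a lipoprotein gene, was the one that rose in these strains (0.37, adjusted p = 0.0446, in w+hsp70- and 0.51, adjusted p = 0.0145, in hsp70-1c). Its call was lost in w+hsp70- when any of naive replicates 1 to 3 or 5 h replicates 1 to 3 was left out (0.0823 to 0.191), and in hsp70-1c without 5 h replicate 2 (0.092). The 7 muscle genes summed to 1206 to 1496 CPM at 5 h and 1609 to 2227 CPM in naive flies of hsp70-4c, where 3 of 7 fell. In hsp70-1c, where 1 of 7 fell, the sums were 1219 to 1393 CPM and 1464 to 1937 CPM. None fell in w+hsp70- (1521 to 1699 CPM at 5 h and 1651 to 1879.9 CPM in naive flies) or hsp70- (1486 to 1556 CPM and 1621 to 1736 CPM). Photoreceptor genes summed to 35942 to 37166 CPM at 5 h and 28470.1 to 31019 CPM in naive flies of hsp70-1c, where 1 of 6 rose. In hsp70-4c they summed to 23167 to 26932 CPM and 19726 to 23926 CPM, in w+hsp70- to 25778 to 33962 CPM and 29652 to 38279 CPM, and in hsp70- to 26954 to 33468 CPM and 27742 to 35889 CPM, with overlap and no call in each. Of 7 tested gut genes, 1 fell in hsp70-1c and none was called in the other strains. The gut sums of hsp70-1c were 3911 to 5301 CPM at 5 h and 3697.5 to 18120 CPM in naive flies. No fat body, muscle or photoreceptor gene of the lists was at 0 throughout a group. The part of all these tissues in the results was not tested.

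The 8 circadian clock genes summed to 860.4 to 903 CPM at 5 h and 522 to 721 CPM in naive flies of w+hsp70-, and to 825 to 998 CPM and 578 to 809 CPM in hsp70-4c. In hsp70- the sums were 729.5 to 803 CPM at 5 h and 777 to 1083 CPM in naive flies, and in hsp70-1c 858 to 1077 CPM and 495 to 708 CPM. The sums were higher at 5 h without overlap in 3 of the 4 strains. By the test, 1 of 8 rose in w+hsp70-, none was called in hsp70-4c or hsp70-, and 2 rose and 1 fell in hsp70-1c. Of all genes tested, 1.93% were called in w+hsp70-, 5.48% in hsp70-4c, 0.0305% in hsp70- and 3.51% in hsp70-1c. Of the clock genes called, the repressor gene cwo rose in hsp70-1c (log2 difference 0.79, SE 0.15, adjusted p = 0.0106), whichever library was left out. The call of per in w+hsp70- was lost without naive replicate 2 or 3 or 5 h replicate 1, 2 or 3 (0.0935 to 0.171). In hsp70-1c the rise of Pdp1 lost its call without 5 h replicate 1 or 2 or naive replicate 1, 3 or 4 (0.114 to 0.1398). The fall of cry there lost its call without 5 h replicate 1 or 3 or naive replicate 1, 3 or 4 (0.0686 to 0.147). The part of these genes in the results was not tested.

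At 24 h none of the 5 tested genes was called against naive flies in hsp70-4c, where 0.923% of genes were called, or in hsp70-1c, where 0 of 10514 genes were. In hsp70-1c an unadjusted p under 0.05 was found for 974 genes, and 76 were called by DESeq2. Sardh was at 4.50 to 14.3 CPM in naive flies, 10.9 to 29.0 CPM at 5 h and 11.5, 27.9 and 27.7 CPM at 24 h in hsp70-4c. Sardh of hsp70-1c was at 8.09 to 16.6 CPM in naive flies, 8.72 to 17.5 CPM at 5 h and 27.5, 18.9 and 18.8 CPM at 24 h. Its 24 h libraries lay above the naive ones in hsp70-1c, as for 9.37% of genes, but overlapped them in hsp70-4c, where 13.9% of genes had no overlap. SelR of hsp70-4c was at 55.4, 59.1 and 55.7 CPM at 24 h, below the naive libraries at 65.7 to 84.3 CPM, with a log2 difference of -0.39 (SE 0.10, adjusted p = 0.0692). The log2 differences of Sardh from naive flies were 1.13 (SE 0.49, adjusted p = 0.332) in hsp70-4c and 0.94 (SE 0.30, adjusted p = 0.402) in hsp70-1c.

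Sam-S was lower at 24 h than at 5 h in both strains with 24 h libraries. It was at 220.2, 233 and 224 CPM at 24 h in hsp70-4c, and at 272, 302 and 328 CPM at 5 h. In hsp70-1c it was at 295, 272 and 269.5 CPM at 24 h and at 544, 439 and 369 CPM at 5 h. Neither strain showed overlap, and Sam-S fell by 0.42 (SE 0.09, adjusted p = 0.034) and by 0.69 (SE 0.14, adjusted p = 0.0235) on the log2 scale. It was the only 1 of 5 tested genes called in each, where 0.981% of genes were called in hsp70-4c (0.346% lower) and 1.36% in hsp70-1c (0.485% lower). Libraries of these times did not overlap for 14.6% and 15.4% of genes. In hsp70-4c the adjusted p was 0.103, 0.078 and 0.154 without 24 h replicates 1, 2 and 3, and 0.1295 and 0.141 without 5 h replicates 2 and 3. In hsp70-1c it was 0.0665, 0.121 and 0.106 without 24 h replicates 1, 2 and 3, and 0.0836 and 0.0715 without 5 h replicates 1 and 2. Ahcy passed there without 5 h replicate 3 (0.0247) and Cbs without 24 h replicate 3 (0.0464).

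Gnmt averaged 42.6 ± 16.9 CPM in naive flies (SD, n = 4), 499.5 ± 223 at 5 h (n = 3) and 91.0 ± 42.4 at 24 h (n = 3) in hsp70-4c. In hsp70-1c the means were 317 ± 89.2, 853 ± 196 and 331 ± 34.3 CPM at the same times. MsrA averaged 76.3 ± 9.32, 120.4 ± 21.0 and 79.5 ± 10.04 CPM in hsp70-4c, and 130.3 ± 24.1, 378.5 ± 97.7 and 146 ± 6.18 CPM in hsp70-1c. In hsp70-1c the 24 h libraries of both genes overlapped the naive ones, while the 24 h mean of Gnmt in hsp70-4c was 2.14-fold the naive mean by the fit, with overlapping libraries.

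Among naive flies, Gnmt, MsrA and Ahcy were highest in hsp70-1c. The means of Sam-S (272 CPM) and Sardh (11.4 CPM) were highest there too, with libraries that overlapped those of naive hsp70-4c. Naive means of Cbs and SelR were highest in hsp70-4c. Over 3 or 4 libraries, mean Gnmt of w+hsp70- was 102 ± 29.6 CPM, that of hsp70-4c 42.6 ± 16.9, that of hsp70- 87.5 ± 35.2 and that of hsp70-1c 317 ± 89.2 CPM (SD). MsrA averaged 93.8 ± 3.21, 76.3 ± 9.32, 90.5 ± 8.24 and 130.3 ± 24.1 CPM in the same order. For both genes every naive hsp70-1c library lay above every naive library of the other 3 strains. Ahcy averaged 71.4 ± 8.69, 72.7 ± 9.15, 66.7 ± 7.53 and 122.5 ± 21.8 CPM in that order of strains, again with no naive hsp70-1c library within the range of the others. How many of all genes were separated in this way from the other 3 strains at once was not counted. The naive libraries took part in the choice of Gnmt and MsrA.

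Naive hsp70-4c flies had less Ahcy than naive hsp70-1c flies (log2 difference -0.77, SE 0.13, adjusted p = 0.000394), as did naive hsp70- flies (-0.89, SE 0.14, adjusted p = 0.00088). These comparisons share the hsp70-1c libraries. Both calls stayed whichever library was left out. Ahcy was the only 1 of 5 tested genes called in each, where 10.1% of 10462 genes were called in the first (5.9% lower) and 7.53% in the second (5.68% lower). Naive libraries did not overlap for 15.7% and 17.6% of genes in these comparisons. Sam-S passed in the first comparison without hsp70-1c naive replicate 2 (adjusted p = 0.0281), against 0.0702 with it. Tissue markers differed in the same comparisons. Fat body genes summed to 3208 to 4055 CPM in naive hsp70-4c, 1977 to 2675 CPM in naive hsp70- and 5461 to 6712 CPM in naive hsp70-1c flies, with 1 of 13 lower in hsp70-4c and 5 of 13 lower in hsp70- than in hsp70-1c. Photoreceptor genes summed to 19726 to 23926 CPM in naive hsp70-4c and 28470.1 to 31019 CPM in naive hsp70-1c flies, with 3 of 6 lower and 1 higher. Haemocyte genes summed to 114 to 129 CPM in naive hsp70-4c and 157 to 165 CPM in naive hsp70-1c flies, with 3 of 5 lower, while 2 of 5 glial and 2 of 7 muscle genes were higher. In hsp70- against hsp70-1c, 1 of 5 glial genes was lower and no photoreceptor, haemocyte or muscle gene was called. Of 7 gut genes, 1 was lower in hsp70-4c and 1 in hsp70- than in hsp70-1c. The part of these tissues in the result for Ahcy was not tested. Between naive w+hsp70- and hsp70-, and between naive w+hsp70- and hsp70-4c, none of 5 genes was called, where 0.287% and 9.91% of genes were.

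At 5 h hsp70-4c flies had less Sam-S than hsp70-1c flies (log2 difference -0.59, SE 0.13, adjusted p = 0.00991), 1 of 5 tested genes, where 5.61% of 10521 genes were called and 2.62% were lower. The adjusted p was 0.0611 without hsp70-1c replicate 1, and 0.073 and 0.0536 without hsp70-4c replicates 1 and 2. Ahcy passed without hsp70-4c replicate 3 (0.0197), against 0.124 with it. In the same comparison 2 of 6 photoreceptor genes were lower and 1 higher in hsp70-4c (sums of 23167 to 26932 CPM, and 35942 to 37166 CPM in hsp70-1c). Of the fat body genes 2 of 13 were higher, and of the gut genes 1 of 7. The part of these tissues was not tested. Mean MsrA of hsp70-4c was 120.4 ± 21.0 CPM and that of hsp70-1c 378.5 ± 97.7 CPM (n = 3 each), a described log2 difference of -1.65 (SE 0.28). Between w+hsp70- and hsp70- at 5 h none of 5 genes was called, where 0.266% of genes were.

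Libraries at 24 h took no part in the choice of Gnmt and MsrA, so all 7 genes were tested there. MsrA was at 68.0, 84.2 and 86.3 CPM in hsp70-4c and at 149, 139 and 150 CPM in hsp70-1c, with no overlap. The log2 difference was -0.88 (SE 0.11, adjusted p = 0.00154), and it stayed called whichever library was left out. It was 1 of 7 called, where 4.2% of 10214 genes were and 2.03% were lower. Libraries did not overlap for 20% of genes. Photoreceptor genes summed to 22720.4 to 28428 CPM in hsp70-4c and 33711 to 40627 CPM in hsp70-1c at 24 h, with 2 of 6 lower and 1 higher. Of the haemocyte genes 1 of 5 was lower (113 to 136 CPM in hsp70-4c and 148 to 175 CPM in hsp70-1c), and no fat body, muscle, glial or neuronal gene was called. The part of these tissues was not tested. Gnmt was at 43.5, 125 and 104 CPM in hsp70-4c and at 364, 295 and 333 CPM in hsp70-1c. Those libraries did not overlap, yet the log2 difference of -1.86 (SE 0.39) did not pass (adjusted p = 0.0709). Without hsp70-4c replicate 1, the lowest library, the difference was -1.53 and passed (adjusted p = 0.000138). With all libraries in 1 edgeR fit Gnmt passed too (adjusted p = 0.0054), as it did by the Wald test of DESeq2 (adjusted p = 0.000983). Ahcy did not pass the main test either (-0.66, adjusted p = 0.0518), but did without hsp70-4c replicate 1 (0.046) or 2 (0.0481). Its adjusted p was 0.00729 by the Wald test of DESeq2. By edgeR it was 0.0325 with the replicate number as a block and 0.0243 without the filter on low counts.

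None of the 5 tested genes was called by an interaction test for a difference of the 5 h response between strains, for hsp70-4c minus hsp70-1c (0.0465% of 10764 genes called) or w+hsp70- minus hsp70- (0 of 10223). In the second an unadjusted p under 0.05 was found for 272 genes, and 2 other genes were called by DESeq2. The described difference of the responses of hsp70-4c minus hsp70-1c was 2.14 (SE 0.56) for Gnmt and -0.86 (SE 0.24) for MsrA on the log2 scale. Both values come from the libraries the genes were chosen on, and on the CPM scale the 5 h mean minus the naive mean was smaller in hsp70-4c than in hsp70-1c for both genes. For the 24 h responses of the same strains none of 5 was called and 0 of 10764 genes were, by edgeR or DESeq2, with 509 at an unadjusted p under 0.05.

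The 28 other genes listed for the cycle, its folate, polyamine and cysteine branches, and thioredoxin included 22 or 23 that were tested in each comparison. At 5 h 3 of 22 rose and none fell in w+hsp70-, with a median log2 difference of 0.12 beside 0.00 over all genes tested. In hsp70-4c 4 of 22 rose and none fell (median 0.21, beside 0.00), in hsp70- none of 23 was called (median 0.05, beside 0.01), and in hsp70-1c 1 of 22 rose and 1 fell (median 0.11, beside 0.01). Of all genes tested, 0.979% rose in w+hsp70-, 3.04% in hsp70-4c and 0.0305% in hsp70-, and 1.41% rose and 2.1% fell in hsp70-1c. Cth, the cystathionine gamma-lyase that follows Cbs, rose in w+hsp70-, to 84.4 ± 5.98 CPM at 5 h against 52.6 ± 5.601 CPM in naive flies (n = 3 each, log2 difference 0.68, SE 0.10, adjusted p = 0.0022). Also in w+hsp70-, the folate enzyme gene pug (0.55, adjusted p = 0.0132) and CG6415 (0.44, adjusted p = 0.0331) rose. The pug call was lost without 5 h replicate 1 (0.0649), and that of CG6415 without any of 5 libraries (0.0835 to 0.12), naive replicates 1 and 3 and 5 h replicates 1, 2 and 3.

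In hsp70-4c Odc1, the ornithine decarboxylase of polyamine synthesis, rose to 47.8 ± 2.32 CPM at 5 h (n = 3) against 32.6 ± 1.56 CPM in naive flies (n = 4; log2 difference 0.56, SE 0.08, adjusted p = 0.00195). SamDC, which decarboxylates S-adenosylmethionine for the same pathway, rose there to 65.8 ± 2.21 CPM against 43.6 ± 4.65 CPM in naive flies (0.60, SE 0.09, adjusted p = 0.00334). Both calls stayed whichever library was left out. Adi1, of the methionine salvage pathway, rose by 0.38 (adjusted p = 0.0197) and CG10621 by 0.82 (adjusted p = 0.0293). Their calls were lost without 5 h replicate 1 (0.0593 for Adi1, 0.0789 for CG10621) or 5 h replicate 3 (0.0828 and 0.0513). The same held for Adi1 without naive replicates 2 and 3 (0.0579 and 0.0644), and for CG10621 without 5 h replicate 2 (0.1005) or naive replicate 4 (0.0662).

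In hsp70-1c CG3999 fell, to 15.7 ± 3.66 CPM at 5 h (n = 3) against 41.3 ± 7.62 CPM in naive flies (n = 4; log2 difference -1.39, SE 0.19, adjusted p = 0.00251), a call that stayed whichever library was left out. It was higher at 24 h than at 5 h (1.18, adjusted p = 0.0124), and that call was lost without 24 h replicate 2 (0.058) or 5 h replicate 2 (0.0531). SamDC rose there by 0.39 (adjusted p = 0.0495), a call lost without any of the 7 libraries of the comparison (5 h replicates 1 to 3 and naive replicates 1 to 4; adjusted p 0.0739 to 0.225).

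**Figure D3:**
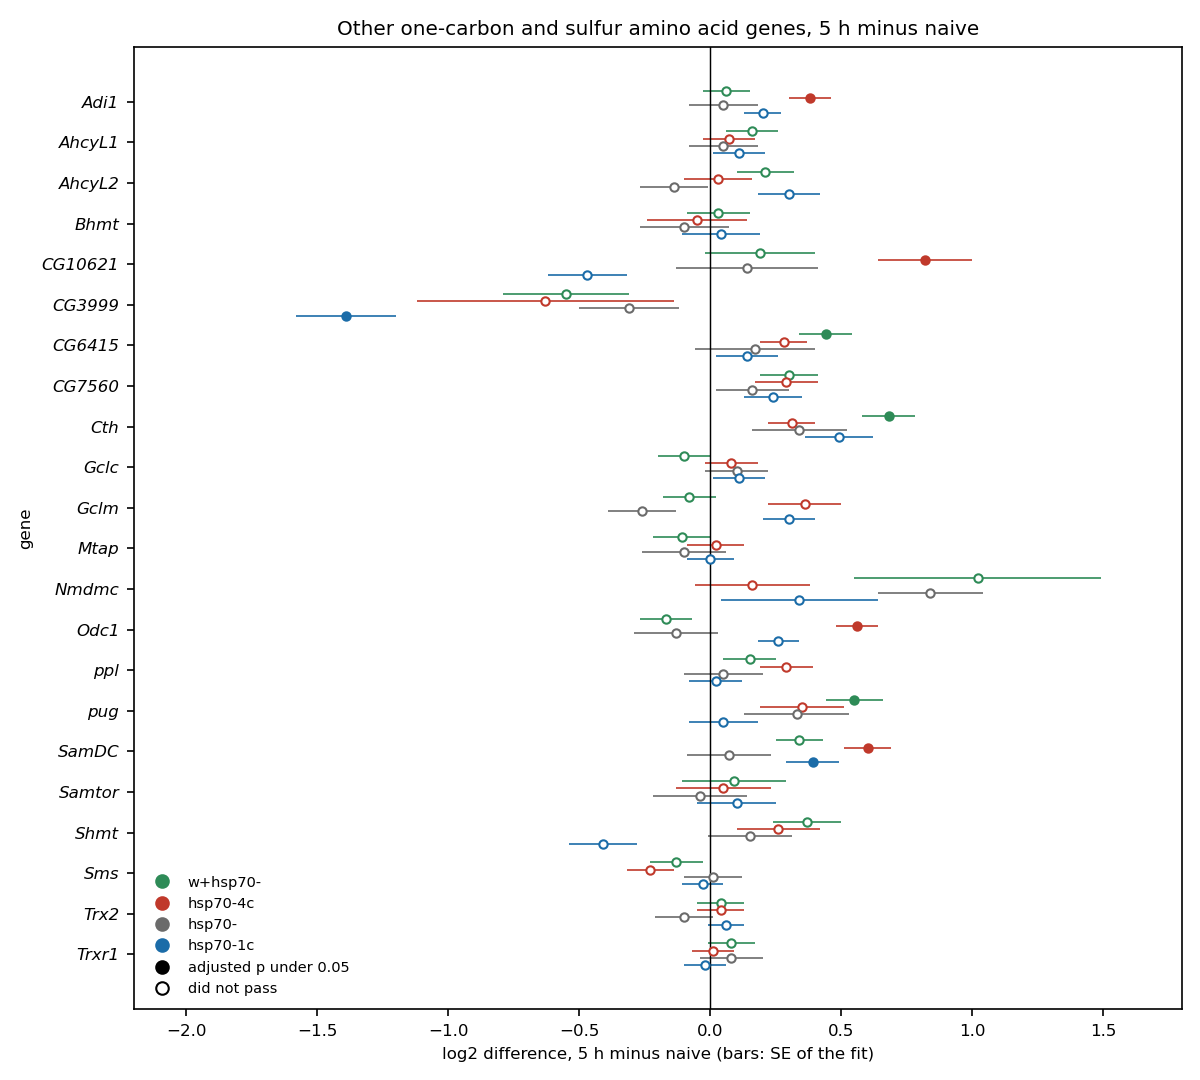
Log2 difference between 5 h and naive flies, with 1 SE, of 22 of the 28 other listed genes in 4 strains; filled points passed the edgeR test. Odc1 and SamDC rose in hsp70-4c, Cth in w+hsp70-, and CG3999 fell in hsp70-1c; dhd, tested in hsp70- alone of the strains and not called, is not drawn.

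Naive hsp70-4c flies had 8 of the 22 listed genes lower and none higher than naive hsp70-1c flies, with a median log2 difference of -0.22 beside 0.00 over all genes, of which 10.1% were called and 5.9% were lower. CG10621 was at 42.1 ± 10.02 CPM in hsp70-4c and 182 ± 29.95 CPM in hsp70-1c (n = 4 each, log2 difference -2.13, adjusted p = 4.08e-06). Shmt, which moves one-carbon units from serine to folate, was at 194 ± 37.4 CPM in hsp70-4c and 370.3 ± 54.7 CPM in hsp70-1c (-0.95, adjusted p = 0.000717). SamDC (-0.62), CG7560 (-0.52) and Odc1 (-0.45) were lower too, with adjusted p from 6.03e-05 to 0.00241. Cth was lower by 0.33 on the log2 scale (adjusted p = 0.023), but not without naive replicate 1 or 4 of hsp70-1c or naive replicate 1, 2 or 4 of hsp70-4c (0.0501 to 0.109).

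Compared with naive hsp70-1c, naive hsp70- flies had 8 of 22 listed genes lower and 1 higher, with a median of -0.13 beside 0.00 over all genes, of which 7.53% were called and 5.68% were lower. The lower ones included Shmt (-1.43), CG10621 (-1.53), pug (-1.16), Cth (-0.56), CG3999 (-2.08) and ppl (-0.53), with adjusted p from 0.000216 to 0.00675. At 24 h CG10621 (-1.72, adjusted p = 3.85e-05), CG7560 (-0.62, adjusted p = 0.00639) and SamDC (-0.68, adjusted p = 0.011) were below hsp70-1c in hsp70-4c flies. The SamDC call was lost without hsp70-1c replicate 2 (0.0688) or hsp70-4c replicate 3 (0.0806). At 5 h, Nmdmc, a mitochondrial folate dehydrogenase gene, was the only 1 of 23 called between these strains (-1.47, SE 0.24, adjusted p = 0.00358). In naive flies Odc1 (0.87, adjusted p = 5.47e-06), SamDC (0.50, adjusted p = 0.00136) and CG10621 (0.94, adjusted p = 0.00811) were higher in w+hsp70- than in hsp70-4c. The gene pug was lower there (-0.64, adjusted p = 0.0244), but not without naive replicate 2, 3 or 4 of hsp70-4c or naive replicate 2 or 3 of w+hsp70- (0.0529 to 0.123).

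Within groups, Gnmt and Sardh moved together from library to library. Each library's log2 CPM minus its group mean correlated between these genes with r = 0.896 over 32 libraries (Spearman's rho 0.891), and r was 0.878 without the 2 libraries farthest on Gnmt. Among 8615 genes with a mean of at least 5 CPM, Sardh had the highest r with Gnmt. Within strains r was 0.473 in w+hsp70- (6 libraries), 0.919 in hsp70-4c (10), 0.986 in hsp70- (6) and 0.935 in hsp70-1c (10). Gnmt with Ahcy had r = 0.804 (rank 17 of 8615; rho 0.764; 0.738 without the same 2 libraries), and Gnmt with MsrA r = 0.684 (rho 0.689; 0.649). MsrA was at rank 96, Sam-S at 759 (r = 0.430), Cbs at 906 (r = 0.396) and SelR at 3972 (r = 0.018). The r of Gnmt with SelR differed between strains, at 0.241 in w+hsp70-, 0.597 in hsp70-4c, -0.963 in hsp70- and 0.300 in hsp70-1c. Ranks 2 to 5 went to genes outside the pathway lists: GNBP-like3 (r = 0.881), Reg-2 (0.859), GstD9 (0.849) and BomBc3 (0.832).

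MsrA was closest within groups to Cth (r = 0.763), and had r = 0.708 with Sam-S (rho 0.611; 0.575 without the 2 libraries farthest on MsrA; -0.219 in w+hsp70-). Genes in a library share its depth and tissue composition, deviations within a group are not independent of each other, and these pairs were chosen after their values were seen, so no p is given. Deviations of Gnmt also correlated with the summed muscle genes (r = -0.738) and glial genes (r = -0.693), and with the fat body genes at r = 0.037. Those of Sardh correlated with the muscle genes at -0.674, the glial genes at -0.763 and the fat body genes at 0.251. SelR followed the neuronal genes (r = 0.770). The part of tissue composition in these correlations was not tested.

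**Figure D4:**
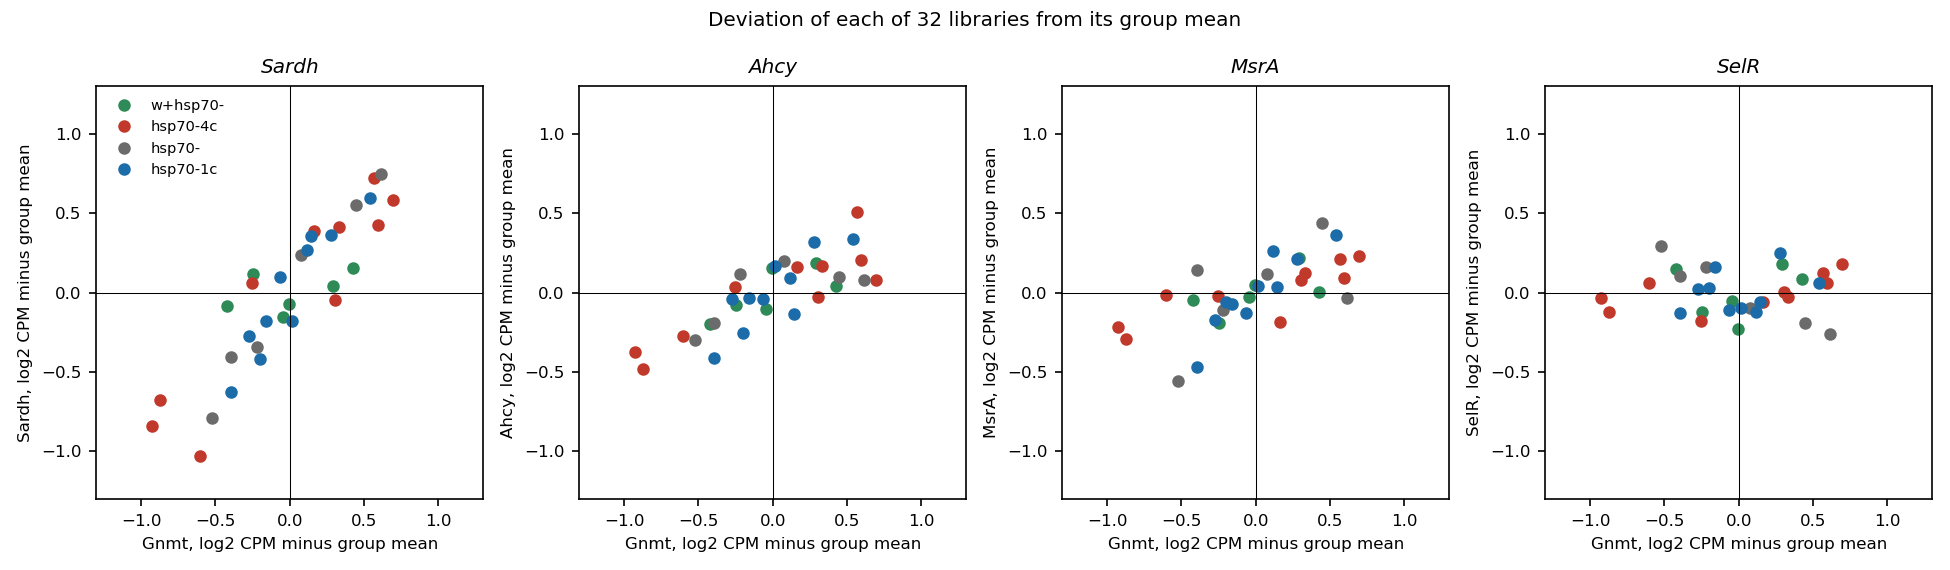
Deviation of each library from its group mean in log2 CPM, for Sardh, Ahcy, MsrA and SelR (y axes) against Gnmt (x axes), 32 libraries coloured by strain. Sardh (r = 0.896), Ahcy (0.804) and MsrA (0.684) lie along a rising line over all libraries, and SelR (0.018) does not. Within strains the r of SelR with Gnmt went from -0.963 in hsp70- to 0.597 in hsp70-4c.

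Over the 10 group means, the genes of most like pattern to Gnmt among 8616 were CG32687 (Pearson's r = 0.981), atk (0.974), CG3040 (0.973), Nep6 (0.964) and Idgf1 (0.960). Those closest to MsrA were CG3829 (0.963), CG42806 (0.962), Sam-S (0.960), CG1441 (0.955) and pippin (0.951). Those closest to Sardh were CG3246 (0.964), CG11590 (0.959), shop (0.957), Tep2 (0.952) and CG17202 (0.943). The gene shop encodes sulfite oxidase, at the end of sulfur amino acid breakdown. Sardh is not in the list of Gnmt: in hsp70-4c and hsp70-1c, the strains with 24 h libraries, the group mean of Sardh was highest at 24 h and that of Gnmt at 5 h. Groups share strains and times, so these r values describe the pattern and carry no p.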

How the data were processed

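The authors' deposited files hold raw counts, whole numbers of reads per gene, 1 file per library, with 17559 genes and 12 status lines. Per the submitters' processing notes, reads were trimmed with Trimmomatic, aligned with STAR 2.5.0a to dm6 and counted with featureCounts 1.5.0-p1; how strand was set, other settings and the annotation release: not given in the sources used here. Libraries were made from polyadenylated RNA with a directional kit, per the labels' protocols. Gene totals equalled the assigned reads in 32 of 32 files; 58.1 to 68.7% of the reads listed in the status lines were in no annotated feature and were not used. Lengths and positions come from the Ensembl BDGP6 annotation, in dm6 coordinates.

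Tests used the robust quasi-likelihood fit of edgeR 4.0.16 (R 4.3.3), 2-sided, on group means after TMM scaling and filterByExpr, with Benjamini-Hochberg adjustment over all genes tested, and called at an adjusted p under 0.05. Training contrasts used all libraries of a strain, strain contrasts all libraries of that time point, and interactions both strains. SE is the log2 difference divided by the square root of F. CPM use TMM effective sizes over 32 libraries; per kb is CPM per kb of merged exons. Errors after ± are SD. Replicates are pools of flies, so p-values measure variation between pools. Correlations are of log2 CPM (prior count 2) and over genes of at least 5 CPM on average.

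Same-numbered libraries had deviations correlated at -0.199 to 0.537 in 24 pairs, with 13 over 0.1. In 24 h against 5 h of hsp70-1c all 3 pairs were over 0.1, and the replicate block changed no call of the 7 genes there. In the other comparisons 1 or 2 of 3 pairs were over 0.1, and the tests did not pair libraries. For Gnmt, Sardh and Ahcy, replicate 1 of hsp70-4c was the lowest of its group in naive flies, at 5 h and at 24 h. So was replicate 3 of hsp70- in naive flies and at 5 h. In w+hsp70- the highest and lowest Gnmt libraries differed in number between naive flies and 5 h. The method was tested on simulated counts. The 7 genes and the gene lists were chosen with earlier results of these data known. The genes named are the 7, up to 6 called genes of the pathway list per comparison, the 5 most like Gnmt, MsrA and Sardh, and up to 4 called clock or fat body genes. Matplotlib 3.10.9 and pandas 2.3.3 were used in Python 3.11.15. Alternatives were DESeq2 1.42.0 size factors, the DESeq2 Wald test, no filter on low counts, a replicate block, all libraries in 1 fit, assigned reads as library size, and leaving out each library.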

Additional observations from a re-analysis of the deposited data

Results flagged for a closer look

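Cbs in naive hsp70-4c flies had 1 library, replicate 3, apart from the others, at 53.66 CPM beside 46.3, 47.3 and 46.1 CPM. It was the 1 of 14 sets of 4 naive libraries (7 genes in hsp70-4c and hsp70-1c) in which the gap to the nearest library, 0.839 of the range, was over the 95% critical value of Dixon's test. Chance flags about 1 in 20 such sets.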

How the results depend on the processing

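For the 7 genes no log2 difference that was called changed its direction under any alternative run, and the 34 described values of Gnmt and MsrA moved by less than 1 SD between replicates under each. Mean CPM with assigned reads as library size stayed within 1 SD in 70 of 70 sets. With DESeq2 size factors counts of calls of the 7 genes were the same in 18 of 18 comparisons. The cause of the changes below was not tested. Counts are of the 5 tested genes (7 for strains at 24 h). Smaller relative changes of a count are not listed below. Among these, Cbs gained a call at 5 h in w+hsp70- without the filter (adjusted p = 0.00574). Ahcy did at 5 h in hsp70-4c with all libraries in 1 fit (0.0171) and by the DESeq2 Wald test (0.00937).

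Without the filter on low counts, 2 genes were called for hsp70-4c minus hsp70-1c at 24 h (main 1), and of all genes 22 were called at 5 h in hsp70- (main 3), 468 in w+hsp70- (main 193), 1 at 24 h in hsp70-1c (main 0) and 1 for the response of w+hsp70- minus hsp70- (main 0). With all libraries in 1 fit, the counts were 0 for 24 h minus 5 h in hsp70-4c (main 1), 2 for hsp70-4c minus hsp70-1c at 5 h (main 1) and 2 at 24 h (main 1). Of all genes that fit called 76 at 5 h in hsp70-, 107 in w+hsp70-, 10 at 24 h in hsp70-1c, 220 in hsp70-4c, 44 for w+hsp70- minus hsp70- at 5 h, 656 for hsp70-4c minus hsp70-1c at 24 h and 2 for their 5 h responses. The DESeq2 Wald test called 2 of the genes for 24 h minus 5 h in hsp70-1c, 1 for 24 h minus naive in hsp70-4c, 2 for naive hsp70- minus hsp70-1c, 2 for hsp70-4c minus hsp70-1c at 5 h and 3 at 24 h. Of all genes it called 76 and 253 in hsp70-1c for 24 h minus naive and minus 5 h, 277 and 165 in hsp70-4c, 42 at 5 h in hsp70-, 56 for w+hsp70- minus hsp70- at 5 h, 76 for the 5 h responses of hsp70-4c minus hsp70-1c and 2 for those of w+hsp70- minus hsp70-.

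With the replicate block, 1 gene was called for 24 h minus naive in hsp70-4c (Sardh, 1.34, adjusted p = 0.00217), 0 for 24 h minus 5 h in hsp70-4c (Sam-S, adjusted p = 0.0505) and 2 for hsp70-4c minus hsp70-1c at 24 h. Of all genes the block gave 281 for 24 h minus naive in hsp70-4c, 28 at 5 h in hsp70-, 17 for w+hsp70- minus hsp70- at 5 h, 13 for the 5 h responses of hsp70-4c minus hsp70-1c and 2 for those of w+hsp70- minus hsp70-. At 5 h Ahcy lost its call in hsp70-1c (0.108) and SelR in hsp70-4c (0.0584) under the block, while Sardh (1.10, adjusted p = 0.00295) and Ahcy (0.00496) gained one in hsp70-4c and Cbs in w+hsp70- (0.024). The labels link these libraries by a replicate number alone and do not say whether those of the same number were paired.

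Some calls of the other pathway genes were also lost. With all libraries in 1 fit these were pug (0.211) and CG6415 (0.216) at 5 h in w+hsp70-, CG3999 for 24 h minus 5 h in hsp70-1c (0.0966) and Cth for naive hsp70-4c minus hsp70-1c (0.128). The DESeq2 Wald test lost CG6415 (0.0623), and CG10621 at 5 h in hsp70-4c was lost without the filter (0.058). SamDC at 5 h in hsp70-1c was lost with DESeq2 size factors (0.0509) and the replicate block (0.0938), and pug for naive w+hsp70- minus hsp70-4c with the block (0.0753).

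Leaving out 1 library gave 1 to 3 called genes at 5 h in hsp70-1c, 0 to 2 in hsp70-4c, 0 to 2 and 0 to 1 for 24 h minus 5 h in hsp70-1c and hsp70-4c, 1 to 2 for naive hsp70-4c minus hsp70-1c, 0 to 2 at 5 h and 1 to 3 at 24 h. Of all genes it gave 180 to 383 at 5 h in hsp70-1c, 205 to 464 in hsp70-4c, 0 to 17 in hsp70- and 95 to 253 in w+hsp70-; 68 to 109 and 9 to 69 for 24 h minus 5 h in hsp70-1c and hsp70-4c, and 0 to 263 for 24 h minus naive in hsp70-4c. Between strains it gave 12 to 52 for naive w+hsp70- minus hsp70-, 367 to 1176 for hsp70- minus hsp70-1c, 678 to 1018 for w+hsp70- minus hsp70-4c, 7 to 23 for w+hsp70- minus hsp70- at 5 h and 241 to 484 for hsp70-4c minus hsp70-1c at 24 h. For responses of hsp70-4c minus hsp70-1c it gave 2 to 9 at 5 h and 0 to 1 at 24 h. Depth limits Sardh most, at 17 to 240 counts per library.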
